A study of Homo sapiens with 6 samples.

Results

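The E2F transcription factors and the retinoblastoma (pocket) proteins that bind them were followed through 3 m6A peak lists from U2OS cells, a human osteosarcoma line. The set held 10 genes chosen by name (E2F1, E2F2, E2F3, E2F4, E2F6, E2F7, E2F8, RB1, RBL1 and RBL2), and 9 of them had a peak in at least 1 list, out of 10785 genes with a peak in any list. Cells carried siRNA labelled DF2 siRNA #1 (siRNA 1), DF2 siRNA #2 (siRNA 2) or control siRNA, and all 6 libraries, 1 m6A-IP and 1 input per condition, were labelled genotype WT and cell type epithelia cells. DF2 is YTHDF2, a cytoplasmic protein that binds m6A and speeds the decay of the RNA. Fragments of cytoplasmic RNA of about 100 nt were pulled down with an anti-m6A antibody, so a peak marks a stretch of RNA enriched over input. The lists hold no expression levels, so neither the cell line's markers nor the extent of YTHDF2 knock-down was checked.

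Pocket proteins restrain E2F factors until cyclin-dependent kinases phosphorylate them, and the freed E2F then switches on genes for DNA replication and cell division. E2F1, E2F2 and E2F3 are known as activators and E2F4 mostly as a repressor with the pocket proteins RBL1 and RBL2. E2F6 represses without binding a pocket protein, and E2F7 and E2F8 are atypical repressors that bind DNA without a DP partner. U2OS cells are known to keep RB1. m6A is typically placed near stop codons and in 3′ UTRs, where it can shorten the life of an mRNA.

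The lists held 13147 peaks in 8368 genes with siRNA 1, 13310 in 8559 genes with siRNA 2 and 15272 in 9553 genes in control. Each condition had 1 list, so no value has a replicate error and no difference was tested. The authors' peak score had a median of 33 with siRNA 1, 99 with siRNA 2 and 158 in control, and was therefore ranked within its own list, where percentile 100 is the highest score. Percentiles, folds and false discovery rates (FDR) of different lists stand side by side and measure no change. A gene missing from a list had no peak that passed the authors' threshold there, which is not the same as having no m6A, and a change in its RNA level could not be told apart from a change in its methylation.

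By score, the activator genes held the highest peaks of the family in each list. By fold and −log10 FDR this did not hold in control. There E2F1 (11.8 and 1.75) lay below E2F6 (32.1 and 8.12), RBL1 (18.7 and 3.96) and E2F8 (14.2 and 3.11). E2F2 (31.8 and 7.05) also lay below E2F6, while E2F3 stayed highest (99.4 and 26.1). E2F1, E2F2 and E2F3 had peaks in all 3 lists that overlapped each other, while none of the other 7 genes did. E2F4 and RB1 had a peak with siRNA 1 alone, E2F7 and E2F8 in control alone, and E2F6 and RBL1 with siRNA 2 and in control. RBL2 had no peak in any list. In all, 5 of the 10 genes had a peak with siRNA 1, 5 with siRNA 2 and 7 in control. Of all 10785 genes with a peak in any list, 8368 had one with siRNA 1, 8559 with siRNA 2 and 9553 in control. Control thus had the most genes over the whole series as well.

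Set against all genes with a peak in any list, 3 of the 9 family genes (33.3%) were in all 3 lists, against 65.4% of all genes. Those in control alone were 2 of 9 (22.2%), against 12.0% of all genes. Those with siRNA 1 alone were also 2 of 9, against 5.03%, and those with siRNA 2 and in control 2 of 9, against 7.57%. A single family gene is 11.1% of 9, so each of the last 3 shares rests on 2 genes. The 2 comparisons with control use the same control list.

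**Figure D1:**
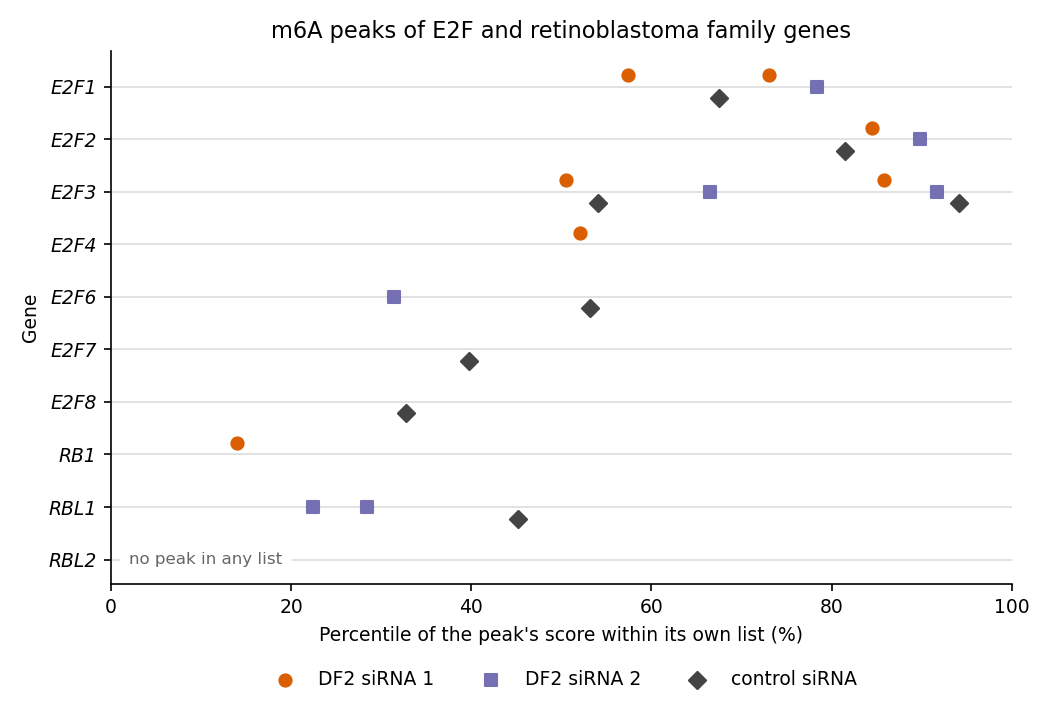
Percentile of each m6A peak's score within its own list (x axis, %) for the 10 genes (rows), with circles for DF2 siRNA 1, squares for DF2 siRNA 2 and diamonds for control siRNA. Every peak at or above percentile 54.1 belongs to E2F1, E2F2 or E2F3, and the lowest, at 13.9, to RB1.

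E2F3, an activator that gives rise to the E2F3a and E2F3b proteins from separate starts, had the strongest peak of the family in every list. This peak (ENSG00000112242, plus strand of chromosome 6) ran from 20486724 to 20491351 (hg38) and covered the same 1400 bases in all 3 lists, annotated to the stop codon, 3′ UTR and coding sequence. Its score was 157 with siRNA 1, 827 with siRNA 2 and 1925 in control. These scores stood at percentile 85.8, 91.7 and 94.2 of their lists, for siRNA 1, siRNA 2 and control. In rank it was number 1866 of 13147 with siRNA 1, 1108 of 13310 with siRNA 2 and 890 of 15272 in control. The peak thus stood in the upper part of each list by score. The fold enrichment was 62.4 with siRNA 1, 88.3 with siRNA 2 and 99.4 in control, and the −log10 FDR was 23.1, 23.2 and 26.1. Both measures were also above their list's median in each condition. It stopped 2363 bases short of the 3′ end of the RefSeq gene.

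E2F3 also had a peak at its 5′ end in every list, and this one differed in extent. It began at 20401906 in all 3 lists, 27 bases after the first RefSeq start at 20401879. It ended at 20403758 with either siRNA, covering 800 bases, and at 20402505 in control, covering 600 bases. The 200 bases present with both siRNAs and not in control were a block of 120 bases from 20402506 to 20402625, which continues the control peak, and a block of 80 bases from 20403679 to 20403758. Blocks of family peaks were at most 200 bases long, and this addition has the length of 1 full block. The 80-base block is thus part of a single step in the extent of the peak, and not a separate peak. The 80-base block lay 65 to 144 bases after the second RefSeq start, at 20403614. The score of the 5′ peak was 34 with siRNA 1, 202 with siRNA 2 and 197 in control, at percentile 50.5, 66.4 and 54.1. Its fold was 25.9 with siRNA 1, 65.7 with siRNA 2 and 35.6 in control. Its −log10 FDR was 13.9, 22.1 and 10.03. The siRNA 2 list thus had the highest of both measures. The authors' annotation of this peak named 5′ UTR, coding sequence and stop codon, although it lay at the opposite end of the gene from the 3′ peak, which begins 84845 bases after the first start and is also annotated to a stop codon.

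The window around the first start of E2F3 is shown because the 5′ peak begins inside it. It is RefSeq sequence of GRCh38.p14, chr6:20401629-20401928, plus strand, from 250 bases before to 50 bases after the start, with the 23 bases of the window that lie in the peak in capitals.
E2F3: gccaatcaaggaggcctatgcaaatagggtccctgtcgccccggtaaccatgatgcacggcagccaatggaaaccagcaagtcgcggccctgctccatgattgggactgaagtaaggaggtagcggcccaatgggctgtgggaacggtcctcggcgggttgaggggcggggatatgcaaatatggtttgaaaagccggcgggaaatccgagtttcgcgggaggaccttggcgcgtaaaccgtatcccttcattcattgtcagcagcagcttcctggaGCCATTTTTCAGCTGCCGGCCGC

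**Figure D2:**
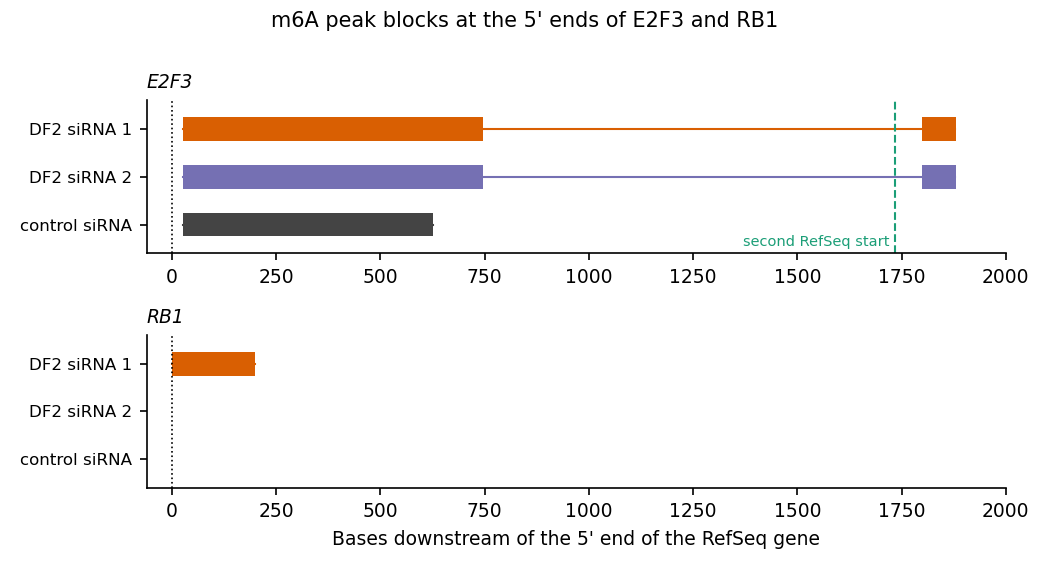
Blocks (bars) of the m6A peaks at the 5′ ends of E2F3 and RB1 by condition, against bases downstream of the RefSeq gene's 5′ end (x axis), with lines joining blocks of 1 peak. With either siRNA the E2F3 peak was longer than in control by 200 bases, drawn as blocks of 120 and 80 bases. The 80-base block lies past the second RefSeq start (dashed) and is not a separate peak. RB1 had a peak of 200 bases with siRNA 1 alone.

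E2F2, the other activator with a strong peak, had its peak at the end of the coding sequence on the minus strand of chromosome 1 (ENSG00000007968). With siRNA 1 and in control it covered the same 600 bases, from 23509487 to 23510086. With siRNA 2 it covered 800 bases, made up of those 600, 62 bases beside them and a block of 138 bases. That block lay upstream in the gene, from 23516335 to 23516472. The addition again has the length of 1 full block of 200 bases, so the 138-base block is not a separate peak. The E2F2 score was 145 with siRNA 1, 719 with siRNA 2 and 790 in control, at percentile 84.5, 89.8 and 81.5. The fold was 56.6 with siRNA 1, 50.4 with siRNA 2 and 31.8 in control, and the −log10 FDR was 20.5, 11.7 and 7.05. Fold and FDR were both strongest in siRNA 1 and weakest in control, an order the score percentile did not share. The authors' annotation named a stop codon for the siRNA 1 and control peaks and none for the siRNA 2 peak, which contains all of their bases.

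E2F1, the first described activator, had its common peak on the minus strand of chromosome 20 (ENSG00000101412), in 400 bases of coding sequence and 3′ UTR between 33676586 and 33677110 in every list. Its score was 83 with siRNA 1, 354 with siRNA 2 and 392 in control, at percentile 73.1, 78.3 and 67.5. The fold was 18.0 with siRNA 1, 16.7 with siRNA 2 and 11.8 in control, and the −log10 FDR was 4.10, 2.70 and 1.75. The control peak thus passed the lists' limit of 0.05 but not an FDR of 0.01, and with that stricter limit E2F1 had peaks in both siRNA lists and none in control. By fold, E2F1 lay above the list's median of 14.9 with siRNA 1, and below the medians of 18.7 with siRNA 2 and 19.1 in control. SiRNA 1 alone gave E2F1 another peak, of 400 bases in the 3′ UTR from 33675786 to 33676185, which ended 309 bases before the 3′ end of the gene. That peak stood at percentile 57.3, with a score of 44, a fold of 12.1 and a −log10 FDR of 2.44.

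**Figure D3:**
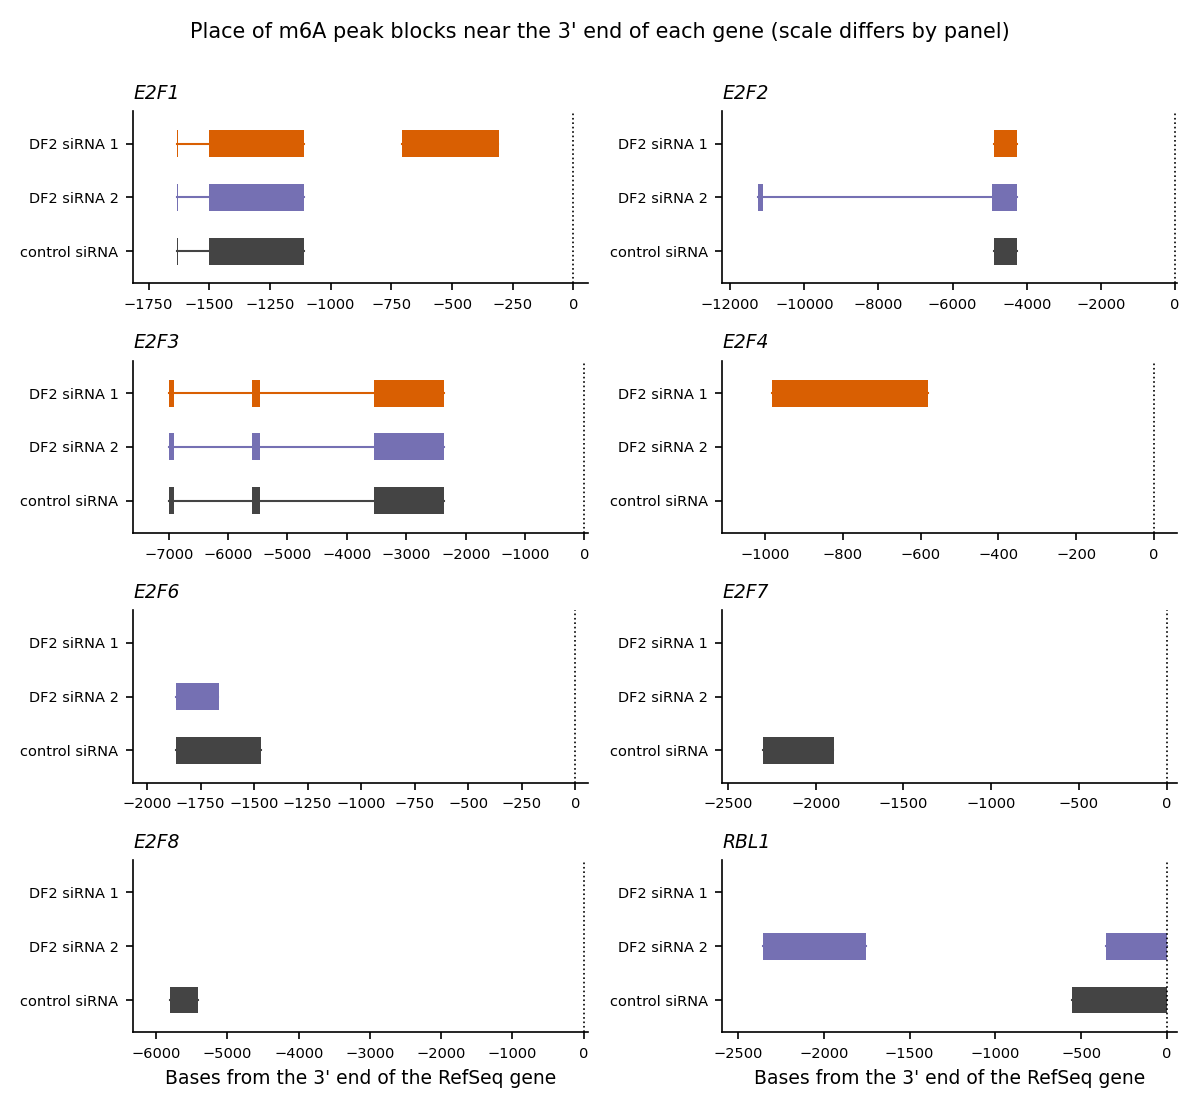
Blocks (bars) of the m6A peaks near the 3′ ends of 8 genes by condition, against bases from the 3′ end of the RefSeq gene (x axis, 0 at the end, scale set per panel). The E2F3 peak was the same in all 3 conditions, and the E2F2 peak with siRNA 2 was longer by 200 bases, drawn as blocks of 62 and 138 bases. E2F1 had an additional peak with siRNA 1, and the E2F7 and E2F8 peaks were in control alone.

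E2F4, a repressor that acts with the pocket proteins, had 1 peak, with siRNA 1. It lay on the plus strand of chromosome 16 (ENSG00000205250), from 67197937 to 67198336, and its 400 bases were annotated to the stop codon with coding sequence and 3′ UTR beside it. Its score of 36 stood at percentile 52.1, near the middle of the list, with a fold of 11.8 and a −log10 FDR of 2.55. Neither the siRNA 2 nor the control list had a peak of E2F4.

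E2F6, a repressor that works in Polycomb-type complexes, had a peak in its 3′ UTR (ENSG00000169016, chromosome 2, minus strand) with siRNA 2 and in control. It covered 200 bases with siRNA 2, from 11446042 to 11446241, and 400 bases in control, from 11445842 to the same end. The score was 40 with siRNA 2 and 187 in control, at percentile 31.5 and 53.1. The fold was 13.003 with siRNA 2 and 32.1 in control, and the −log10 FDR was 2.67 and 8.12. The siRNA 2 peak was therefore narrower, by 1 block of 200 bases, and lower in its list, and siRNA 1 gave none. In control the fold and −log10 FDR of E2F6 were a little above those of E2F2, although its score was lower.

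The atypical repressors E2F7 and E2F8 had peaks in control alone, both below the middle of the list. The E2F7 peak covered 400 bases of the 3′ UTR (ENSG00000165891, chromosome 12, minus strand), from 77023150 to 77023549. It had a score of 86 at percentile 39.8, a fold of 11.1 and a −log10 FDR of 1.72, so it did not pass an FDR of 0.01. The E2F8 peak covered 400 bases on the minus strand of chromosome 11 (ENSG00000129173), from 19229474 to 19229873, and was the only family peak annotated as coding sequence alone. It had a score of 54 at percentile 32.8, a fold of 14.2 and a −log10 FDR of 3.11, and it passed the stricter limit.

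The pocket protein genes had 1 peak in RB1, 3 in RBL1 and none in RBL2, all below the middle of their list by score. RB1, the retinoblastoma protein itself, had 1 peak, with siRNA 1, which covered the first 200 bases of the RefSeq gene on the plus strand of chromosome 13 (ENSG00000139687), from 48303751 to 48303950. The annotation named 5′ UTR and coding sequence. Its score of 8 stood at percentile 13.9, its fold was 6.11 and its −log10 FDR 1.37. This percentile, fold and −log10 FDR were the lowest among the family's 22 peaks, and the peak did not pass an FDR of 0.01.

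RBL1, which encodes p107, had peaks in its 3′ UTR (ENSG00000080839, chromosome 20, minus strand) with siRNA 2 and in control. In both lists a peak reached the 3′ end of the RefSeq gene at 36996349. It ran to 36996702 with siRNA 2, covering 354 bases, and to 36996902 in control, covering 554 bases. The control peak was longer by 1 block of 200 bases. The score was 34 with siRNA 2 and 118 in control, at percentile 28.4 and 45.2, and the fold was 12.7 and 18.7. SiRNA 2 gave another peak of 600 bases, from 36998103 to 36998702, at percentile 22.4 with a −log10 FDR of 2.53. RBL2, which encodes p130, had no peak in any list.

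**Figure D4:**
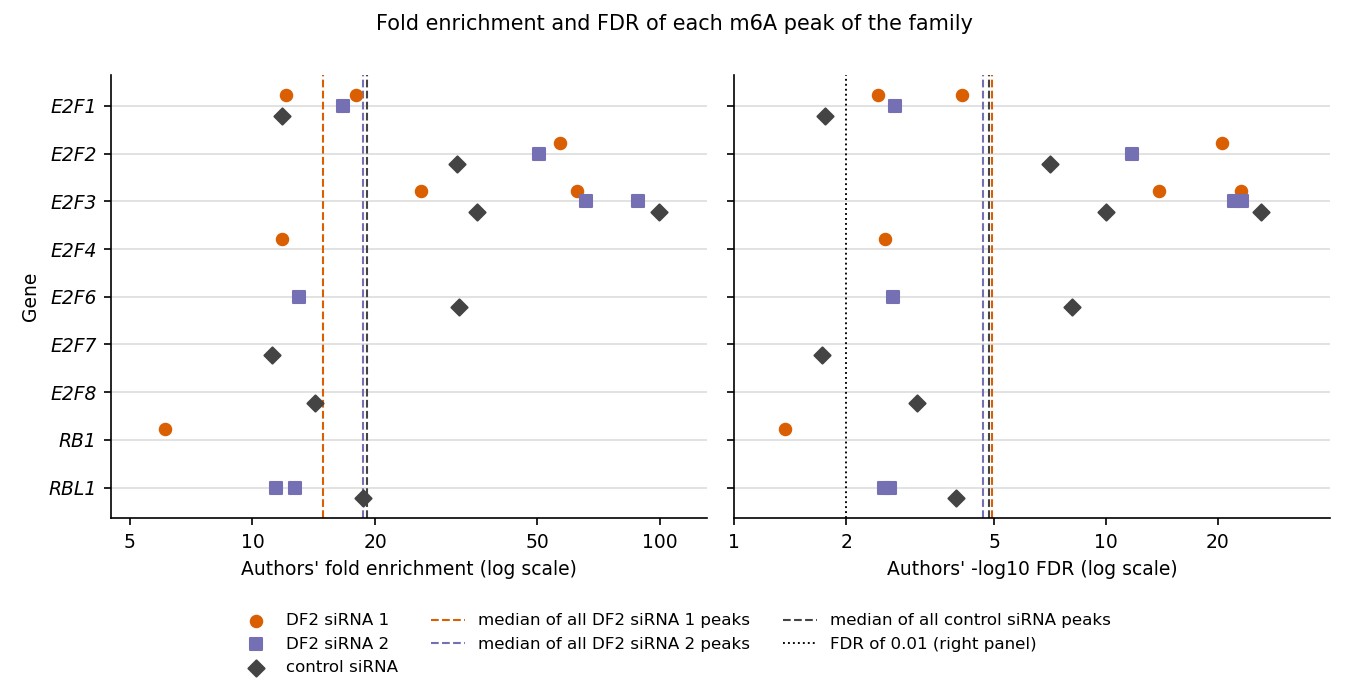
The authors' fold enrichment (left) and −log10 FDR (right), both on log axes, of each peak of the 9 genes with a peak, with circles for DF2 siRNA 1, squares for DF2 siRNA 2 and diamonds for control siRNA, and dashed lines at each list's median over all peaks. E2F2 and E2F3 lie right of the medians in every list, and the E2F1 and E2F7 peaks of control and the RB1 peak of siRNA 1 lie left of an FDR of 0.01 (dotted).

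Of the 7 family peaks with siRNA 1, 4 had an overlapping peak with siRNA 2 and 4 in control, where overlap means at least 1 shared base. Of the 7 with siRNA 2, 4 had one with siRNA 1 and 6 in control. Of the 8 in control, 4 had one with siRNA 1 and 6 with siRNA 2. Over all peaks, 83.6% of those with siRNA 1 overlapped one with siRNA 2 and 81.5% one in control. Of all siRNA 2 peaks, 80.5% overlapped one with siRNA 1 and 86.1% one in control. Of all control peaks, 67.1% overlapped one with siRNA 1 and 73.4% one with siRNA 2. The control peaks without a counterpart with siRNA 1 were the E2F6, E2F7, E2F8 and RBL1 peaks. The siRNA 1 and control lists had 3 peaks with identical blocks (E2F1, E2F2 and the 3′ peak of E2F3), and the siRNA 2 and control lists had 2 (E2F1 and the 3′ peak of E2F3). Over all peaks, 26.9% of those with siRNA 1 and 35.1% of those with siRNA 2 had the same blocks as a control peak.

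Most family peaks lay toward the 3′ end. The annotation included 3′ UTR in 5 of 7 siRNA 1 peaks, 6 of 7 siRNA 2 peaks and 6 of 8 control peaks. Over all peaks these shares were 54.0% (95% exact binomial interval 53.2 to 54.9), 54.8% (54.0 to 55.6) and 56.8% (56.0 to 57.6). The exceptions were the 5′ peaks of E2F3 and RB1 and the coding peak of E2F8.

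The strongest peak of each family gene had a median percentile of 73.1 with siRNA 1 (5 genes), 78.3 with siRNA 2 (5 genes) and 53.1 in control (7 genes). The same median over all genes with a peak was 59.5, 58.9 and 60.1. The family's median covers different genes in each list, since E2F7 and E2F8 enter in control alone and E2F4 and RB1 with siRNA 1 alone. By fold enrichment in place of score, the medians were 57.3, 44.9 and 48.9.

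Genes with score percentiles most like those of a family gene were found over the 3 lists, by the smallest value of the largest difference in any list, among 7052 other genes with a peak in every list. For E2F3, the family gene with the highest mean percentile, these were MKI67, QSER1 and RFWD3, with largest differences of 0.639, 0.661 and 1.16 points. For E2F1, whose percentile ranged most widely (10.8 points) among the 3 family genes with a peak in every list, they were KCTD15, KLHL25 and NAT9, with 0.969, 1.33 and 1.89 points. MKI67, which encodes the proliferation antigen Ki-67, stood at percentile 85.1 with siRNA 1, 91.3 with siRNA 2 and 94.7 in control. Within 3 points lay 53 genes for E2F3 and 20 for E2F1.

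Some promoters of family genes hold E2F-type motifs, which are shown because E2F genes are known to be controlled by E2F proteins. The letters TTTGGCGC and TTTCGCGC were searched on both strands of RefSeq windows (GRCh38.p14) of 300 bases, from 250 bases before to 50 after each start. Of all 35116 windows, 403 (1.15%, 1.04 to 1.26) held a match. Windows were listed for 9 family genes and not for E2F8, and the RB1 window lies at an internal start. Of 11 windows, 3 held a match, those of E2F1, E2F2 and RBL1, each on the minus strand of the genome and on the sense strand of the gene. Other forms of the motif were not searched, so a window without a match may still hold an E2F-type site. The stretches are chr20:33686387-33686416 for E2F1, chr1:23531257-23531286 for E2F2, and chr20:37096005-37096034 and chr20:37095995-37096024 for the 2 overlapping stretches of RBL1, with the matched letters in capitals.
E2F1: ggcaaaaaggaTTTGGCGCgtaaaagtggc
E2F2: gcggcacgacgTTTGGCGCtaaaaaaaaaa
RBL1, upstream match: cagctgcagatTTTCGCGCgctttggcgca
RBL1, downstream match: ttttcgcgcgcTTTGGCGCaggtggttgtg

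The E2F1 match began 20 bases and the E2F2 match 42 bases before the start, and the RBL1 matches 26 and 16 bases before it. None of these 3 windows overlapped an m6A peak of its gene, and a match describes letters, not binding.

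The wider pathway was read from 4 lists of 53 genes, of which 36 had a peak in any list: 30 with siRNA 1, 30 with siRNA 2 and 33 in control. Of these 36, 26 (72.2%) were in all 3 lists, against 65.4% of all genes, and 4 (11.1%) were in control alone, against 12.0%. With both siRNAs and not in control there were 2 (5.56%), against 3.55% of all genes. Of all 10785 genes with a peak in any list, 8368 had one with siRNA 1, 8559 with siRNA 2 and 9553 in control.

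Of 9 genes for E2F dimerisation partners and the DREAM/MuvB complex, which represses cell cycle genes in resting cells, 5 had a peak with siRNA 1, 4 with siRNA 2 and 6 in control. Of the 6 with a peak in any list, 4 (66.7%) were in all 3 lists, against 65.4% of all genes. TFDP2, a DP partner, was in control alone, with a 3′ UTR peak at percentile 21.0 and a −log10 FDR of 1.41. FOXM1, a mitotic transcription factor, had its strongest peak at percentile 97.2 with siRNA 1, 97.8 with siRNA 2 and 95.8 in control. FOXM1 had a peak at the stop codon and one in coding sequence in each list. The stop codon peak stood at percentile 97.2 with siRNA 1, 97.8 with siRNA 2 and 95.7 in control. The coding peak stood at 91.5, 95.3 and 95.8, so the stop codon and coding peaks were nearly level in control. A further, lower FOXM1 peak was present with siRNA 2 and in control, at percentile 21.7 and 36.3. LIN54, the DNA-binding subunit of MuvB, had 3 peaks in each list, the strongest at percentile 68.8, 78.4 and 86.9. LIN52 was in all 3 lists, at percentile 43.1, 44.8 and 54.7, and LIN9 lacked a siRNA 2 peak. TFDP1, the main DP partner, named after its values were seen, had 1 3′ UTR peak at percentile 72.0, 88.6 and 92.5.

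Of 8 cyclins and kinases that phosphorylate pocket proteins, 6 had a peak with siRNA 1, 5 with siRNA 2 and 4 in control. Of the 6 with a peak in any list, 4 (66.7%) were in all 3 lists, against 65.4% of all genes. The differences between the counts per list rest on CCND3 and CDK2 alone. CCND3, a D-type cyclin, had a peak with both siRNAs and none in control, annotated to 5′ UTR and coding sequence in both lists. Its percentile was 28.0 for siRNA 1 and 46.1 for siRNA 2, and its −log10 FDR 6.03 and 4.74. CDK2, the partner of cyclin E, had a stop codon peak with siRNA 1 alone, at percentile 74.5 with a −log10 FDR of 1.73. CCND1, cyclin D1, had a stop codon peak in each list, at percentile 76.8 with siRNA 1, 79.3 with siRNA 2 and 77.3 in control. The CCND1 −log10 FDR was 3.86, 1.52 and 1.31, so the siRNA 2 and control peaks did not pass an FDR of 0.01. The peak began at 69648168 with either siRNA and at 69651245 in control. CDK6, a kinase that partners D-type cyclins, had a 5′ UTR peak in each list, at percentile 68.4, 61.4 and 57.7. CDK4 and CCNE1 had low peaks in all 3 lists, CDK4 at percentile 22.8, 29.6 and 26.9 and CCNE1 at 11.6, 5.44 and 8.03.

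Of 12 cofactors of pocket proteins or E2F6, 10 had a peak in any list, and 9 of these (90%) were in all 3 lists, against 65.4% of all genes. HDAC1 and HDAC2 were in no list, and PCGF6, an E2F6 complex subunit, was in control alone at percentile 34.6. L3MBTL2, another subunit of that complex, had its strongest peak at percentile 96.6 with siRNA 1, 96.7 with siRNA 2 and 94.3 in control. KDM5A, a histone demethylase first found by its binding to the retinoblastoma protein, had 5, 5 and 6 peaks, the strongest at percentile 84.2, 80.8 and 87.4. CTBP1, a corepressor, had 3, 4 and 6 peaks, and EPC1 had 1 in each list.

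Of 24 reported E2F targets, 10 had a peak with siRNA 1, 12 with siRNA 2 and 13 in control, and 10 had none in any list. Of the 14 with a peak in any list, 9 (64.3%) were in all 3 lists, against 65.4% of all genes. CDC6 and MCM6, which load and form the replicative helicase, were in control alone, at percentile 51.4 and 64.2, with a −log10 FDR of 1.69 and 1.63. PCNA, the sliding clamp of DNA polymerases, had a peak with both siRNAs and none in control, and its percentile was 76.8 for siRNA 1 and 81.4 for siRNA 2. The PCNA −log10 FDR was 3.90 for siRNA 1 and 1.495 for siRNA 2. CDC25A, a phosphatase that activates CDKs, was in all 3 lists at percentile 92.4, 96.9 and 90.6. CDT1, a licensing factor, stood at 82.0, 87.1 and 73.0, and BUB1, a spindle checkpoint kinase, at 65.7, 74.1 and 79.7. CHEK1, a checkpoint kinase, had no siRNA 1 peak. Its siRNA 2 peak, annotated to the 5′ UTR, stood at percentile 5.44. The stronger of its 2 control peaks, annotated to a stop codon, stood at 37.6, so these percentiles belong to different places.

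**Figure D5:**
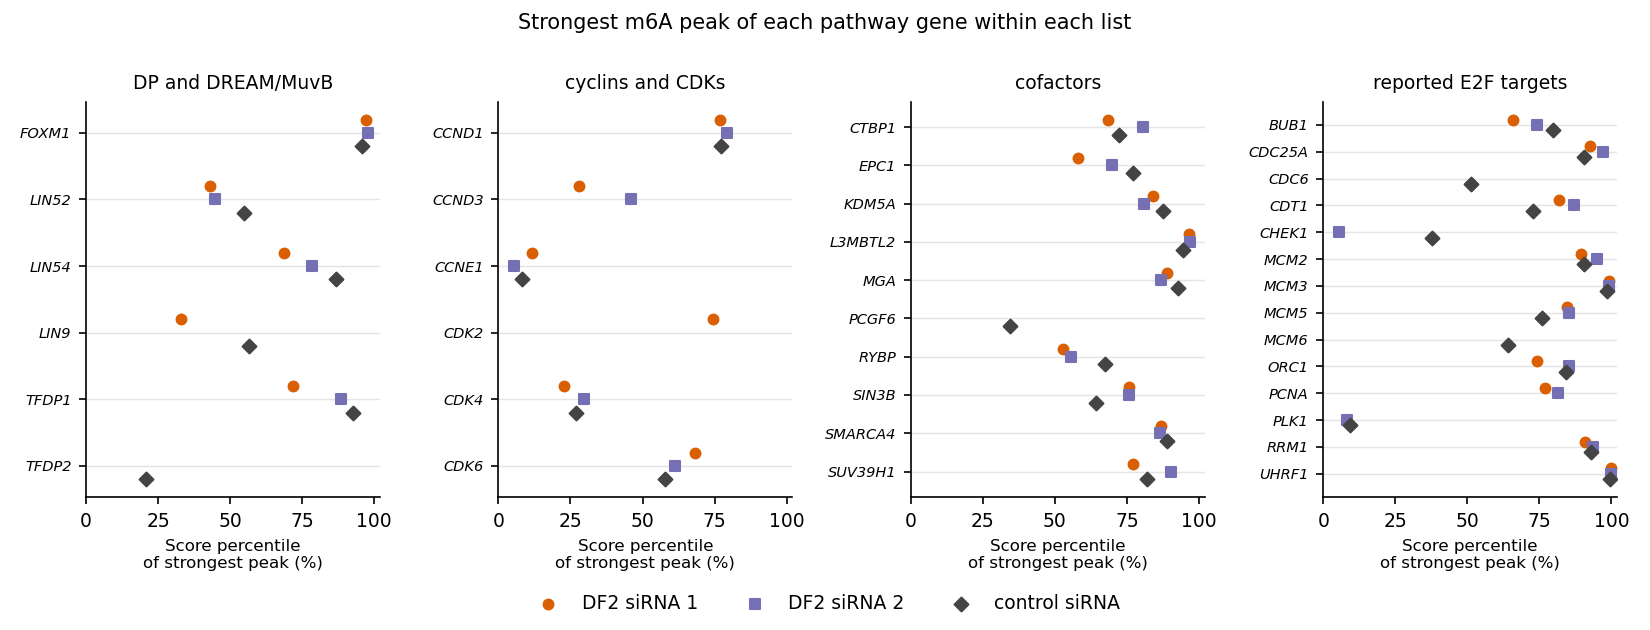
Percentile of the strongest m6A peak of each pathway gene within its own list (x axis, %), for the 36 genes with a peak, in 4 panels by gene list, with circles for DF2 siRNA 1, squares for DF2 siRNA 2 and diamonds for control siRNA. TFDP2, PCGF6, CDC6 and MCM6 have a control symbol alone, and CCND3 and PCNA have siRNA symbols and none for control.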

How the data were processed

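HISAT2 (no version) and hg38 are named, per the submitters' processing notes. No source used here names the peak caller. For each condition the authors deposited 1 list, marked as merged over r1 and r2, while the labels hold 1 m6A-IP per condition. Per the file headers, each peak has a score (whole numbers, definition not given), a fold enrichment (ratio) and a −log10 FDR, all used as deposited by the authors. Depth is unknown, as no read counts were used.

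Python 3.11.15 with pandas 2.3.3 and scipy 1.17.1 was used. Starts were raised by 1, and block sizes reversed on the minus strand, after which every block end matched its peak end. Genes are as the authors assigned them. Peaks overlapped with 1 shared base of a block on 1 strand, and percentiles are mid-ranks within a list. A peak annotated to a stop codon was assigned to it. Others were assigned to the 5′ UTR or 3′ UTR if annotated to that UTR and not the other. Those annotated to coding sequence and neither UTR were assigned to coding. Peaks annotated to both UTRs without a stop codon were counted as other. Pattern code tested on simulated data gave 2000 of 2000 genes their planted pattern. No p-value was computed. DRACH motifs and proteins were not analysed here. Gene starts, ends and promoter windows are from RefSeq GRCh38.p14.

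The family and pathway genes were chosen with earlier results of these data known. Named pathway genes were all those in control alone or in siRNA lists alone, and 4 others with a peak per list, in alphabetical order. HDAC1 and HDAC2, which had no peak, were named besides, as were the genes marked as named after their values were seen. Alternatives were an FDR under 0.01, equal numbers of top peaks, the top 50% by score or fold, 50% overlap, gaps of 100 bases, other rankings, peaks by RefSeq span and stricter transcript parts.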

Additional observations from a re-analysis of the deposited data

How the results depend on the processing

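E2F2 and E2F3 had peaks in all 3 lists under every choice of peaks tried, and RBL2 had none. With an FDR under 0.01, E2F7 and RB1 had no peak, which left 1 family gene in control alone and 1 with siRNA 1 alone, and E2F1 kept its peaks in both siRNA lists alone. The same limit left 1 pathway gene in control alone and 1 with both siRNAs alone. With each list limited to its 13147 highest scores the family's patterns were those of the report, and 746 of all genes were in control alone, against 1294 with all peaks. In the top 50% by score, 3 family genes had a siRNA 2 peak and 4 a control peak, with 1 in control alone, 1 with siRNA 1 alone and 0 with siRNA 2 and in control, and over all genes 4253 were in all 3 lists and 855 in control alone. In the top 50% by fold enrichment, 3 family genes had a siRNA 1 peak, 2 a siRNA 2 peak and 3 a control peak, with 1 in control alone, 1 with siRNA 1 alone and 0 with siRNA 2 and in control, and 4067 genes were in all 3 lists. By fold E2F1 thus left the genes in all 3 lists and was the one with siRNA 1 alone, E2F6 was the one in control alone, and E2F4, E2F7, E2F8, RB1 and RBL1 had no peak. By score E2F1 stayed in all 3 lists, E2F4 was with siRNA 1 alone and E2F6 in control alone. Fewer peaks enter each of these settings by construction. The median percentile of the family's strongest peaks was 57.3, 44.9 and 48.9 (siRNA 1, siRNA 2, control) by fold enrichment, 43.3, 29.2 and 43.3 by −log10 FDR, and 64.9, 71.2 and 42.6 against the strongest peak of every gene, and the cause of these shifts was not tested. Asking for 50% of each peak in common, allowing gaps of 100 bases and taking any peak in the RefSeq span changed no count of the family's peaks or patterns. Naming a transcript part solely for peaks annotated to a single one changed 7 of 12 counts of family peaks by part. No paired analysis was possible because each condition had 1 merged list and no result came from a test. The absence of replicate lists and of read depth limits each value to a description.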

Other observations

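Some replication genes among the reported E2F targets held some of the strongest peaks of the pathway; they are named after their values were seen. MCM3, a subunit of the replicative helicase, had a peak at percentile 99.1 with siRNA 1, 99.3 with siRNA 2 and 98.5 in control. MCM2 stood at 89.5, 94.9 and 90.5 and MCM5 at 84.6, 85.1 and 76.0, while MCM7 had no peak in any list. UHRF1, which recruits DNMT1 to newly replicated DNA, had a 3′ UTR peak at percentile 99.7, 99.9 and 99.4, with a fold enrichment of 288 with siRNA 1, 169 with siRNA 2 and 85.8 in control. DNMT1 itself had no peak.

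The authors number the peaks of each gene from 0, and some numbers are skipped. For the family this held for E2F2 and RBL1 with siRNA 2 and for E2F8 and RBL1 in control. Over all genes a number was skipped in 21.8% with siRNA 1 and 22.2% in control, with siRNA 2 between them. What the skipped numbers stand for is not stated.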
